A study of Mus musculus with 778 samples.

Results

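Non-growing oocytes (NGO) are the small oocytes of the first follicles of the neonatal ovary, which are arrested in meiotic prophase and have not yet begun to enlarge. They are known for holding meiotic chromosome proteins and early germ cell factors together with the first products of oocyte differentiation. Transcription factors such as FIGLA, SOHLH1, NOBOX and LHX8 drive that programme, and growth starts when a follicle is recruited from the resting pool.

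The 46 NGO cells were all cells whose name gave this stage, out of 223 oocytes of 5 stages measured by single-cell RNA-seq with unique molecular identifiers (UMIs, tags that let each captured transcript be counted as 1 molecule). They came from wild-type ICR females aged 3 to 4 days and were less than 20 μm across. The other stages came from ICR females aged 3 to 4 weeks: 51 GO1 cells (30 to 45 μm), 26 GO2 cells (50 to 55 μm), 44 GO3 cells (60 to 65 μm) and 56 fully grown oocytes, FGO (above 70 μm). The age of the mouse and the stage of the oocyte therefore cannot be told apart in any comparison with NGO. All oocytes were washed, picked by hand and sequenced in 4 libraries.

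NGO cells held 51400 to 1482980 UMIs, with a median of 540432 and 4 cells under 100000, and 6643 to 12173 detected genes. Cells of the other stages had a median of 110146 (GO1), 676786 (GO2), 972294 (GO3) and 792312.5 (FGO) UMIs. The library of a cell was not given by the cell names, and all 96 cell barcodes were used in more than 1 library, so each stage is 1 pooled sample without replicates. Values are UMIs per 1000000 (CPM) of the summed cells of a stage or of 1 cell, that is, shares of the captured transcripts and not molecules per oocyte. Intervals are exact 95% intervals and cover counting error only, and no p-value was computed from cells.

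The stage label was checked against its markers. *Sohlh1*, a helix-loop-helix factor of early oocytes, ranged from 93.7 to 795 CPM over NGO cells with a median of 387. The median of *Sohlh1* was 0 in GO1 and GO2 cells, 1.34 in GO3 cells and 12.5 in FGO cells. *Crabp1*, which binds retinoic acid in the cytoplasm, had UMIs in 43 of 46 NGO cells (median 30.3 CPM, highest 193), no UMI in any GO1, GO2 or GO3 cell and 10 UMIs in all FGO cells. Of these 2 markers, only *Crabp1* was close to particular to NGO. *Sohlh1* was higher in NGO but had UMIs in 32 GO3 cells and 48 FGO cells. The highest FGO cell had 243 CPM of *Sohlh1* and overlapped with NGO cells. The other 2 markers were higher in NGO but present throughout. *Uhrf1*, the partner that guides maintenance DNA methylation, stood at 616 to 1559 CPM over NGO cells (median 1146) against stage sums of 214 to 396 CPM elsewhere. *Pou5f1*, the pluripotency factor OCT4, stood at 32.5 to 198 CPM (median 99.4) against stage sums of 21.1 to 30.3 CPM. Stage sums hide the spread of single cells, and for neither gene was every NGO cell above every other oocyte.

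Markers of other ovarian cells were close to 0 in NGO. The 21 granulosa cell markers summed to 28.2 CPM (0 to 70.8 over cells), the 18 blood and vessel markers to 24.2 CPM (0 to 67.7) and the 6 surface epithelium markers to 3.41 CPM (0 to 21.7). *Foxl2* and *Amh*, defining genes of granulosa cells, had 5 and 1 UMIs in all NGO cells, and the 6 listed haemoglobin genes had 0, as had *Ptprc*, *Cdh5* and *Kdr*. The blood and vessel sum came mainly from *C1qb* (288 UMIs), *Pecam1*, *Cd68* and *Tek* (83 UMIs), while *C1qa*, the partner of *C1qb* in the complement complex, had 0. The 16 stromal and theca markers summed to 21.4 CPM, but 1 cell reached 279 CPM and the next 32.3 CPM. That cell held 67 UMIs of *Dcn*, 44 of *Col1a1* and 27 of *Col1a2*, matrix genes that had 15, 7 and 2 UMIs in the other 45 cells together. It also held 532 CPM of *Sohlh1* and 1408 CPM of *Sycp3*, within the range of the other NGO cells.

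The promoters of 3 genes are shown because the genes behind them carry the clearest NGO signal: *Sycp3* and *Sohlh1* were the most abundant of the NGO-restricted genes defined below, and *Crabp1* had the largest ratio to the other stages. Each sequence runs from 250 bases before to 50 bases after the RefSeq start, 5′ to 3′ on the strand of the gene. It was taken from RefSeq (GRCm38.p6) and found once, by exact match, in NCBIM37 (mm9), whose coordinates are given. Capitals mark the E-box CACGTG, which reads the same on both strands, and the letters GCGGGAA on either strand. The *Sohlh1* window lies at chr2:25702719-25703018 on the minus strand, the *Sycp3* window at chr10:87922082-87922381 on the plus strand and the *Crabp1* window at chr9:54612305-54612604 on the plus strand.
Sohlh1: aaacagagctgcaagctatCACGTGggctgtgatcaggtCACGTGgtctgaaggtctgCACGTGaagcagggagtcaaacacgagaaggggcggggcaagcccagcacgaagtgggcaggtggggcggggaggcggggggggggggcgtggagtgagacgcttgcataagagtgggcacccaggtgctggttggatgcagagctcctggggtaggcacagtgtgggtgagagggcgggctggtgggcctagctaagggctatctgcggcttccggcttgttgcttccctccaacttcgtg
Sycp3: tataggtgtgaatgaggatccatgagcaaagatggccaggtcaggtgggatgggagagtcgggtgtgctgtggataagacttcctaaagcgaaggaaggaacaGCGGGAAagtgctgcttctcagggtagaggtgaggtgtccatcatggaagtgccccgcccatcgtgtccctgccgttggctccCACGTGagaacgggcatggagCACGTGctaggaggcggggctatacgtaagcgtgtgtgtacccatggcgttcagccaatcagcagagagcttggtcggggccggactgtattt
Crabp1: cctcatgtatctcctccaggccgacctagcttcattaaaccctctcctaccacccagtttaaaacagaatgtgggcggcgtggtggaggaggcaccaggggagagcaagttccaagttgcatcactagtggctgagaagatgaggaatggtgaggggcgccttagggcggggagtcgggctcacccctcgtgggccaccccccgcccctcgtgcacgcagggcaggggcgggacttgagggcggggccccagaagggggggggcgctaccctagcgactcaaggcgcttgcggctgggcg

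The *Sohlh1* window held CACGTG 3 times and the *Sycp3* window 2 times together with 1 GCGGGAA, while neither set of letters was in the *Crabp1* window. Of the 33 NGO-restricted genes, 31 had a promoter in the table, and 7 of these (22.6%) held CACGTG: *Sohlh1*, *Sycp3*, *Bex1*, *Bex3*, *Ctsf*, *Fbln1* and *Rbm46*. The share was 10.7% of 6901 matched genes at 10 CPM or more in any stage, 7.24% of all 27025 promoters of the same length, 13.7% of the 927 matched genes at least 2-fold above every other stage, and 0 of 28 among the NGO-depleted genes. CACGTG holds a CpG, and the median window had 13 CpG among restricted genes, 21 among genes at 10 CPM or more and 4 among depleted genes. For GCGGGAA it was 2 of 31 against 9.42%. A match is a string of letters and does not show that a factor binds there.

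*Zp3*, a protein of the zona pellucida that receives sperm, was the most abundant transcript of NGO. It ranged from 8650 to 16128 CPM over the 46 cells (median 11568), and it took 1.12% of all NGO UMIs (95% interval 1.12 to 1.13). Its stage sums were 4217, 5194, 5594 and 7512 CPM in GO1, GO2, GO3 and FGO, so that the share was highest in NGO. The highest FGO cell had 14731 CPM of *Zp3* and overlapped with NGO cells. *Ldhb*, the lactate dehydrogenase subunit typical of oocytes, came next with 7493 to 20002 CPM (median 10438), and its stage sum of 10836 CPM lay among those of the other stages, 9109 to 12002 CPM. *Dppa3*, which shields the maternal genome from demethylation, ranged from 5100 to 18252 CPM (median 8642). The following transcripts were those of *Padi6*, *Intu* (a planar polarity effector), *Cdk7* (the CDK-activating kinase), *Tmsb10* (an actin-binding thymosin), *Ubb* (polyubiquitin), *Hsp90aa1* and *Khdc3*.

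*Padi6*, a component of the cytoplasmic lattices of the egg, was the one gene of these 30 that separated NGO completely. Every NGO cell (4688 to 11606 CPM, median 7279) was above every cell of the other stages, the highest of which had 4087 CPM. Of 8671 genes at 10 CPM or more in any stage, 4 (0.0461%) were separated in this way. The other 3 were *Cox4i1*, the common isoform of cytochrome c oxidase subunit 4 (894 to 2318 CPM in NGO, at most 824 elsewhere), *Lamp1*, the main lysosomal membrane protein (848 to 1548, at most 669), and *Ctsd*, the lysosomal protease cathepsin D (226 to 537, at most 176). These 3 genes were named after their values were seen. Another lysosomal protease, cathepsin F (*Ctsf*), was among the NGO-restricted genes at 20.6 CPM against at most 1.21 CPM.

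**Figure D1:**
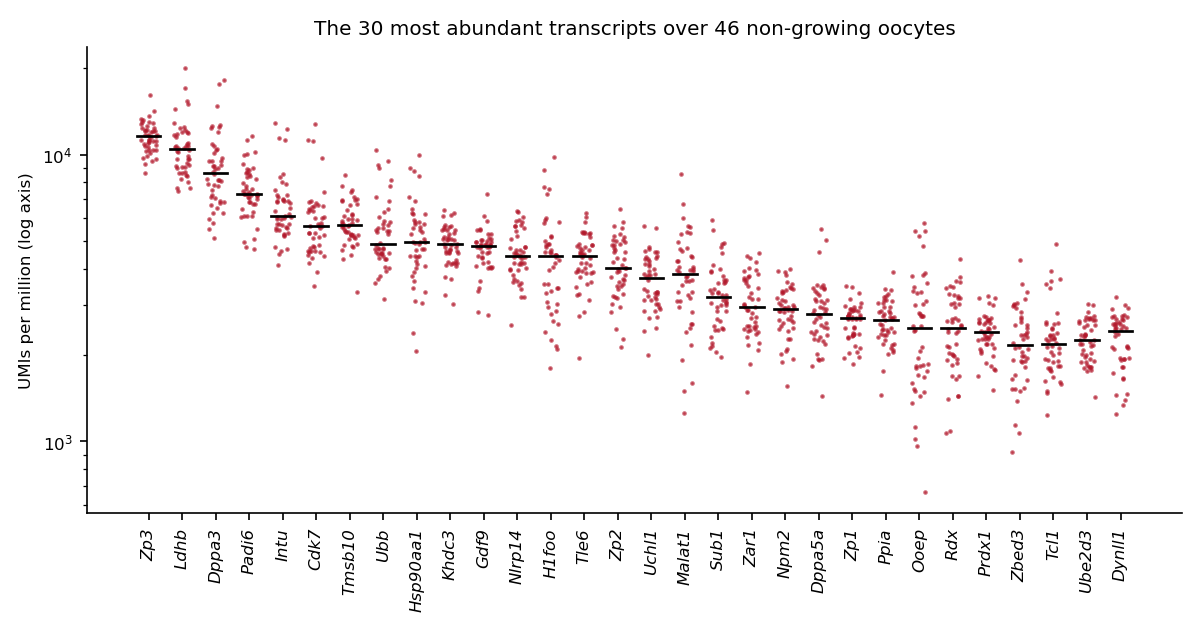
The 30 most abundant transcripts of NGO, ordered by their stage sum. Each point is 1 of 46 cells, black lines are medians and the vertical axis is CPM on a log scale. *Zp3* spans 8650 to 16128 CPM and *Ooep*, of the subcortical maternal complex, spans 665 to 5778 CPM.

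Other zona, maternal and secreted factor genes were among the 30 most abundant. *Zp2*, the second main zona protein, had 2127 to 6475 CPM (median 4021), and 43 of 46 cells were above every other oocyte. *Tle6*, of the subcortical maternal complex, had 1952 to 6234 CPM and 36 such cells. *Gdf9*, the growth factor by which oocytes signal to granulosa cells, had 2765 to 7304 CPM (median 4802), and its stage sum of 4919 CPM was near those of the other stages (4755 to 5681 CPM). *H1foo*, the oocyte linker histone, went the other way: it had 4651 CPM in NGO and 9435 to 13459 CPM elsewhere. The remaining genes of the 30 include the maternal effect genes *Nlrp14*, *Zar1*, *Npm2*, *Zbed3* and *Ooep*, and the widely expressed genes *Sub1*, *Rdx*, *Prdx1* and *Ube2d3*.

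Some abundant transcripts of general cell function were clearly more prominent in NGO. *Malat1*, a long non-coding RNA kept in the nucleus, had 1254 to 8581 CPM over NGO cells (median 3837). *Malat1* ranked 17 in NGO and 955 in GO1, with stage sums of 221.9, 126.96, 375 and 1048 CPM from GO1 to FGO. Single cells overlapped, since the highest FGO cell reached 7758 CPM. *Dynll1*, a dynein light chain, had 1245 to 3185 CPM and 41 of 46 cells above every other oocyte. *Uchl1*, a deubiquitinase of neurons and germ cells, had 38 such cells, and *Ppia*, cyclophilin A, had 35.

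Transcripts were spread over many genes. The 100 most abundant genes held 23.8% of NGO UMIs (23.7 to 23.8), or 23.7% ± 1.47 (SD over 46 cells), between 19.7 and 27.8% in single cells. The 100 most abundant genes of each other stage held 24.6% (GO1), 27.7% (GO2), 26.2% (GO3) and 25.8% (FGO). Of the NGO list, 61 genes were also on the GO1 list, 60 on that of GO2, 64 on that of GO3 and 69 on that of FGO. Thinned to 20000 UMIs, an NGO cell had 4911.5 ± 110.7 detected genes (SD, n = 46 cells), against 4203 ± 433 (GO1), 4316 ± 407 (GO2), 4660 ± 204 (GO3) and 4505 ± 354 (FGO). NGO thus had the most detected genes at equal depth and the narrowest spread between cells. Without thinning the NGO mean was 10302 ± 1215 genes and that of GO3 11217 ± 1219.

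Genes restricted to NGO were defined by size: at least 10 CPM in NGO and at least 10-fold above each of the 4 other stages, with a stage at 0 UMIs taken at 3 UMIs. There were 33 such genes of the 8671 (0.381%), and since the same values chose them, they are a description. By the same rule 0 genes were restricted to GO1, GO2, GO3 or FGO, and at 2-fold 43, 1, 1 and 9 genes were. Those stages are successive steps of size from mice of the same age range, while NGO differs from them in age as well. At the limit, *Zmat1* (10.4-fold), *Fbln1* (10.5-fold) and *Vars* (10.955-fold) were just inside, and *Fam109a* (9.77-fold), *2410003L11Rik* (9.68-fold) and *Maged1* (9.57-fold) just outside.

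*Sycp3*, which builds the axial element of the synaptonemal complex, was the most abundant. NGO cells had 230 to 2021 CPM (median 1132), and 45 of 46 were above every other oocyte, of which a GO1 cell was highest with 240 CPM. The NGO sum of 1098 CPM was 20.9-fold (20.1 to 21.6) that of FGO. Thinned to 20000 UMIs, 100% of NGO cells and 66.1% of FGO cells had a *Sycp3* UMI, so the transcript was low but not absent later. *Syce3*, of the central element of the same complex, had 10.2 CPM in NGO and 0.0801 to 0.591 CPM elsewhere. *Rbm46*, a germ cell RNA-binding protein needed for meiosis, had 7.65 to 184 CPM over NGO cells and a stage sum 14.6-fold above that of FGO. *Rbm46* was not restricted by the mean over cells, without the 10 deepest cells of each stage or in thinned cells, and *Syce3* not with either other scaling or in thinned cells.

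*Sohlh1* was the second most abundant, at 374 CPM in NGO and 0.336, 0.961, 2.35 and 19.2 CPM in the stages from GO1 to FGO. The ratio to FGO was 19.4 (18.3 to 20.6), and 36 of 46 NGO cells were above every other oocyte. Some FGO cells overlapped with NGO, up to 243 CPM. *Crabp1* had the largest ratio, 267-fold over FGO (144.9 to 559). *Aifm3*, related to the apoptosis-inducing factor, followed with 72.7-fold (38.98 to 153.3) and *Cldn6*, a tight junction protein of early embryos, with 59.9-fold (35.8 to 108.2). Both were low even in NGO, *Aifm3* at 11.3 CPM and *Cldn6* at 13.97 CPM.

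**Figure D2:**
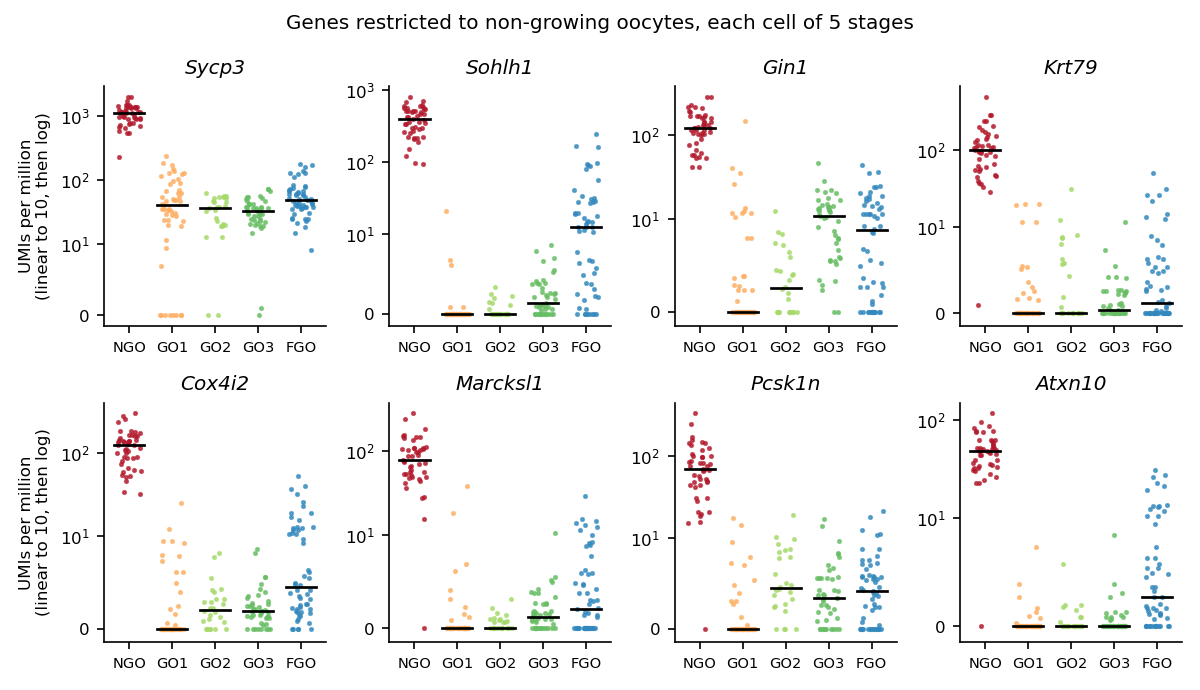
The 8 most abundant NGO-restricted genes in every oocyte of the 5 stages. Points are cells, black lines are medians and the vertical axis is CPM, linear up to 10 and logarithmic above. NGO cells stand above nearly all others, with 45 of 46 above every other oocyte for *Sycp3* and 36 for *Sohlh1*.

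*Cox4i2*, the alternative isoform of cytochrome c oxidase subunit 4, had 32.7 to 302 CPM over NGO cells (median 124.5) and was 21.8-fold (19.5 to 24.4) above FGO, so that both isoforms of this subunit were highest in NGO. *Marcksl1*, an actin regulator, had 86.6 CPM in NGO and 0.841 to 5.52 CPM elsewhere, and 41 of 46 cells were above every other oocyte. *Pcsk1n*, a precursor of secreted peptides, had 72.7 CPM against 4.17 to 5.49 CPM, and *Krt79*, a keratin, had 120 CPM against 1.41 to 5.46 CPM. *Bid*, which links death receptors to mitochondrial apoptosis, had 28.5 CPM in NGO and at most 1.90 CPM elsewhere.

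Of the 32 restricted genes with a position in the GENCODE vM1 annotation, 8 lay on the X chromosome, against 254 of 7778 genes with a position at 10 CPM or more (3.27%). They were *Pcsk1n*, *Mageb4*, *Itm2a*, *Trap1a*, *Bex1*, *Tktl1*, *Tsga8* and *Zmat1*. All 8 reached 10 CPM in NGO alone, with at most 5.49 CPM elsewhere (*Pcsk1n* in GO2). The share on the X chromosome among all genes that did so was not computed, so the 2 shares are not of like sets. *Mageb4* belongs to the MAGE family, whose members are known from testis and tumours, and *Tktl1* encodes a transketolase-like protein. The share was 1 of 33 among the NGO-depleted genes and 5.22% among the 1053 positioned genes at least 2-fold above every other stage. The summed level of the 33 restricted genes lay between 993 and 4928 CPM in NGO cells (median 2615) and did not overlap with other stages, where the highest cell was an FGO with 655 CPM. That separation follows from how the genes were chosen.

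Genes depleted in NGO (at least 10 CPM in every other stage and at least 10-fold lower in NGO) numbered 40, or 0.461%. *Oog3*, an oogenesin, had 1.65 to 262 CPM over NGO cells (median 78.4) against stage sums of 2738 to 3250 CPM, a 26.7-fold difference (25.7 to 27.8) from the lowest other stage. The predicted gene *Gm813* had 121.1 CPM against 1548 to 3076 CPM, the homeobox gene *Obox2* 22.5 against 391 to 800 CPM, and *Nlrp9c* 8.49 against 134.8 to 182 CPM. Members of the Oog, Obox and Nlrp families and several predicted genes have near-identical copies, so their counts are uncertain.

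*Tex26*, known from testis, had 9 UMIs in all NGO cells (0.357 CPM) and was 135.4-fold (71.2 to 296) higher in FGO, with 131.6 to 152.5 CPM in GO1 to GO3. *Pacsin1*, an endocytic adaptor best known from neurons, had 12.8 CPM against 170 to 190 CPM. *Slc12a8*, a member of the cation-chloride cotransporter family, had 4.13 CPM against 56.7 to 136.8 CPM. *Enpp2*, the secreted phospholipase autotaxin, had 2.54 CPM against 47.3 to 80.5 CPM, and *Pfkp*, an isoform of phosphofructokinase, 1.07 CPM against 12.25 to 13.3 CPM.

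With a limit of 2-fold in place of 10-fold, 1139 genes (13.1%) were higher in NGO than in every other stage and 705 (8.13%) were lower. The split depended on the scaling: it was 927 higher and 835 lower with DESeq2 size factors, and 798 higher and 948 lower with TMM factors, which lowered NGO against the other stages by 0.16 to 0.33 on the log2 scale. The lists described next were read at this limit. A member that reached 10 CPM in NGO alone could count only as higher, as did *Rbm46*, *Piwil2*, *Tdrd9*, *Pfkm*, *Cox8c* and *Syce3*, and one under 10 CPM in NGO could not count as higher. Beside each stands its median log2 ratio of NGO to the mean of the other stages, which was 0.14 over all 8671 genes, -0.01 with size factors and -0.08 with TMM factors. Where a range over NGO cells stands against values of the other stages, the latter are stage sums and not ranges over cells. Of the 8671 genes, only the 4 given above had every NGO cell above every other oocyte.

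Of the lists, which were chosen with earlier results of these data known, oocyte transcription factors had the highest median ratio in NGO. Of 13 listed, 10 reached 10 CPM in a stage, 7 were higher in NGO under each of the 3 scalings and 0 lower, with a median log2 ratio of 2.32 (2.11 with TMM factors). The 7 were *Sohlh1*, *Sohlh2*, *Figla*, *Tbpl2*, *Pou5f1*, which the pluripotency list also holds, and the chromatin regulators *Kdm5a* and *Hdac1*. *Sohlh1* and *Pou5f1* are also among the markers of this stage given above. *Figla*, the activator of the zona genes, had 338 to 884 CPM over NGO cells (median 605) against 58.8 to 170.5 CPM. *Sohlh2*, the partner of *Sohlh1*, had 54.2 against 4.32 to 11.7 CPM, and *Tbpl2*, the oocyte variant of the TATA-binding protein, 177 against 9.21 to 68.1 CPM. *Nobox* went without such a difference, at 1244 CPM in NGO and 897 to 1745 CPM elsewhere, and *Lhx8* at 408 CPM was 1.83-fold above the highest other stage. *Foxo3*, known for holding follicles at rest, did not reach 10 CPM in any stage.

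Genes of meiotic prophase were divided. Of 37 synaptonemal complex, cohesin and recombination genes listed, 34 were in the table and 20 reached 10 CPM, of which 6 were higher in NGO (5 with either other scaling) and 0 lower, with a median of 0.53. *Syce3*, 1 of the 6, reached 10 CPM in NGO alone and so could count only as higher. *Smc1b*, the meiotic cohesin subunit, had 365 to 1111 CPM (median 652) against 63.4 to 157.9 CPM, *Sycp1* 172 against 18.5 to 32.2 CPM, and *Syce1* 79.8 against 7.17 to 30.96 CPM. *Syce2*, of the same central element, had 961 CPM in NGO and 998 to 1092 CPM elsewhere. *Mei4*, of the machinery that starts meiotic DNA breaks, was at 2.70 CPM in NGO, 74.1 CPM in GO1, 76.4 CPM in GO2, 29.3 CPM in GO3 and 3.51 CPM in FGO. Transcripts of the complex thus did not share a single pattern across growth.

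Germ cell RNA-binding proteins and small RNA factors included 19 genes at 10 CPM of 24 listed, 6 higher and 1 lower (6 and 2 with TMM factors), with a median of 0.97. *Mael*, *Mov10l1*, *Piwil2* and *Tdrd9*, all of the pathway that silences transposons through piRNAs, were among the higher ones. *Piwil2* and *Tdrd9*, like *Rbm46*, reached 10 CPM in NGO alone and so could count only as higher. *Mov10l1* had 41.8 to 458 CPM over NGO cells (median 173) against 12.2 to 31.4 CPM, and *Mael* 301 against 74.1 to 96.1 CPM. *Ddx4*, the vasa helicase, had 342 CPM against 58.5 to 198 CPM, a difference of 1.72-fold to FGO. *Dazl* was level, at 483 CPM in NGO and 453 to 483 CPM elsewhere, and *Gtsf1* stood at 893 CPM against 1589 to 1845 CPM.

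Maternal effect genes, of which 23 of 24 reached 10 CPM, were divided: 2 were higher in NGO (*Padi6* and *Tle6*) and 9 were lower, with a median of -1.001. The count with TMM factors was 1 higher and 10 lower. The lower ones were *Nlrp2*, *H1foo*, the oogenesins *Oog1* to *Oog4*, and *Obox1*, *Obox2* and *Obox5*. All but *H1foo* belong to the Oog, Obox and Nlrp families, whose near-identical copies make their counts uncertain. The summed level of the list was nevertheless 50930 CPM in NGO and 39730 to 47292 CPM elsewhere, with the largest parts in NGO from *Dppa3*, *Padi6*, *Khdc3*, *Nlrp14* and *H1foo*. Zona and secreted factors held 12 genes, 1 higher (*Zp2*) and 4 lower (*Bmp15*, *Fgf8*, *Oosp2* and *Oosp3*). *Bmp15*, the partner of *Gdf9*, had 25.1 to 349 CPM over NGO cells (median 88.2) against 478 to 825.5 CPM.

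**Figure D3:**
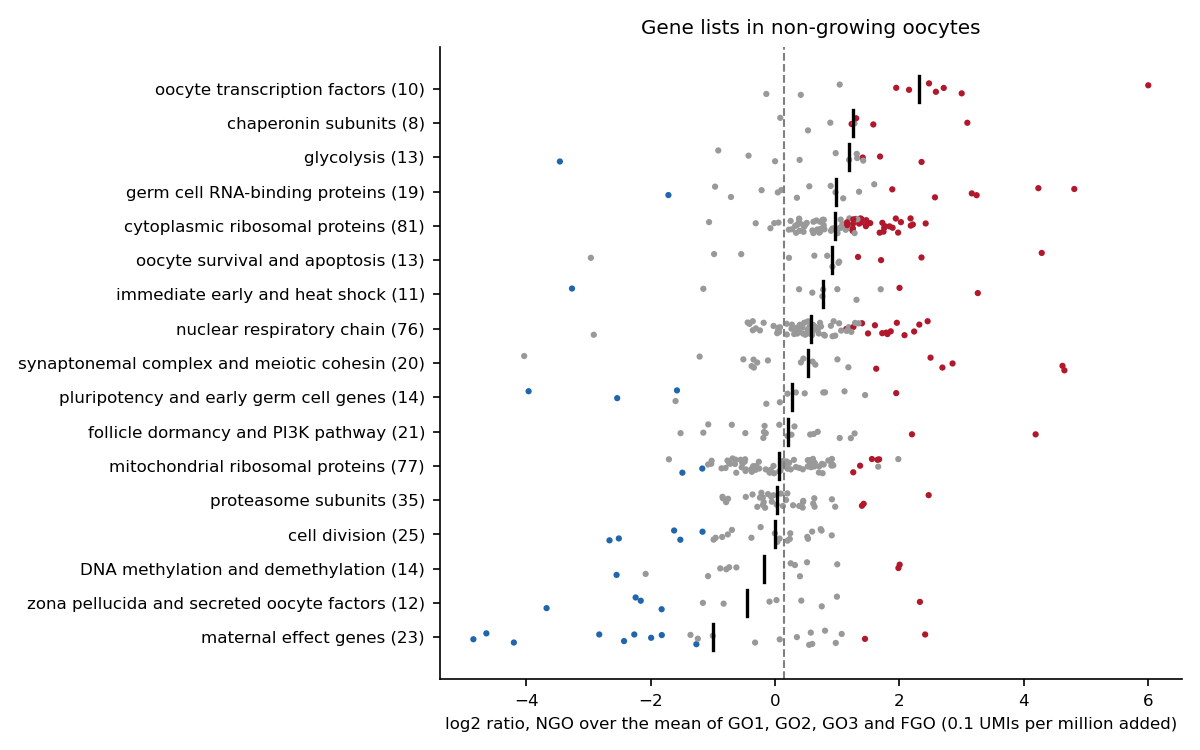
Log2 ratio of NGO to the mean of the 4 other stages for each list gene at 10 CPM or more in a stage, with the number of genes in brackets. Red points are at least 2-fold above every other stage, blue points at least 2-fold below, black bars are list medians and the dashed line is the median of all genes (0.14). Marker lists of other cell types are not drawn. Of the lists drawn, oocyte transcription factors lie highest (2.32) and maternal effect genes lowest (-1.001). The lists were chosen with earlier results of these data known. Maternal effect genes include Oog, Obox and Nlrp members, whose counts are uncertain.

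Ribosomal protein genes had a larger summed level in NGO than in every other stage. Of 81 cytoplasmic ribosomal protein genes at 10 CPM, 29 were higher in NGO and 0 lower (22 with size factors, 20 with TMM factors), with a median of 0.97. Their summed level was 44870 CPM in NGO (33698 to 66681 over cells), and the stage sums of the other stages were 23104 to 27073 CPM. Single cells overlapped, since the highest cell of another stage reached 54523 CPM. The ribosomal RNA precursor *Rn45s* was at 1711 CPM in NGO and 513 to 606 CPM elsewhere. *Eif4ebp1*, which restrains translation until mTOR releases it, had 79.7 to 480 CPM over NGO cells (median 278) against 4.30 to 34.6 CPM. Among 21 genes of follicle dormancy and the PI3K pathway, *Eif4ebp1* and *Akt2* were higher and 0 were lower (2 lower with TMM factors), and the list median of 0.20 was near that of all genes.

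Of 8 chaperonin subunits, 4 were higher (3 with size factors, 2 with TMM factors) and 0 lower, and *Cct6a* had 122.2 to 376 CPM over NGO cells (median 235) against 7.85 to 60.3 CPM. Nuclear genes of the respiratory chain gave 14 of 76 higher and 0 lower (9 higher with TMM factors), a share near the 13.1% of all genes, among them *Atp5d* at 249 CPM, 4.23-fold above the highest other stage. Mitochondrial ribosomal proteins gave 5 higher and 2 lower of 77 with a median of 0.07 (-0.16 with TMM factors), and proteasome subunits 3 higher and 0 lower of 35 with a median of 0.03 (-0.19). In glycolysis, 3 of 13 were higher (*Gpi1*, *Pfkm* and *Gapdh*; 2 with either other scaling) and *Pfkp* lower. *Pfkm* reached 10 CPM in NGO alone and so could count only as higher. *Gapdh*, a common reference transcript, had 91.6 to 560 CPM over NGO cells against 32.95 to 104.5 CPM in the other stages.

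Apoptosis genes at 10 CPM numbered 13, with 4 higher in NGO (*Bid*, *Chek2*, *Casp2* and *Parp1*; 2 with either other scaling) and 0 lower. *Bid*, *Chek2* and *Casp2* reached 10 CPM in NGO alone and so could count only as higher, which leaves *Parp1*. *Chek2*, the checkpoint kinase through which damaged oocytes are removed, had 17.3 CPM against 3.12 to 8.57 CPM, and *Trp63*, its target in oocytes, 18.6 CPM against 6.29 to 11.3 CPM. DNA methylation genes held 2 higher (*Uhrf1* and *Kdm1b*) and 1 lower (*Dnmt3l*) of 14. *Dnmt3l*, the cofactor of de novo methylation, had 21.03 CPM in NGO against 51.5 to 178 CPM. Pluripotency genes held 1 higher (*Pou5f1*) and 3 lower (*Sall4*, *Ifitm3* and *Esrrb*) of 14. Of 25 cell division genes, 0 were higher and 5 lower: *Ccnb1*, *Bub1b*, *Ccne2*, *Cdc20* and *Foxm1*.

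Of 24 immediate early and heat shock genes, 13 were under 10 CPM in every stage. *Ier2* (15.2 against at most 3.25 CPM) and *Hspd1*, the mitochondrial chaperonin (575 against 120 to 188 CPM), were higher in NGO, and *Dusp1* lower (14.1 against 109.02 to 194.5 CPM). *Ier2* reached 10 CPM in NGO alone and so could count only as higher.

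Cell-to-cell variation was measured as the coefficient of variation (CV, SD over mean) of the CPM over the 46 cells after the variance expected from counting had been taken off. Most genes varied little. Over the 3690 genes with a mean of at least 50 CPM, the median CV beyond counting was 0.24 (quartiles 0.19 and 0.32), where counting alone would give a median of 0.17. There were 255 genes (6.91%) at 0.5 or more and 25 at 1 or more. Over 2666 genes at 50 CPM or more in all stages the median was 0.23 for NGO and GO3, 0.50 for GO1, 0.36 for GO2 and 0.31 for FGO. With cells of at least 100000 UMIs alone it was 0.22, 0.38, 0.32, 0.23 and 0.29. NGO and GO3 thus had the lowest spread, although the range of diameters and of depth differs between the stages and its part in the order was not tested.

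Among the steadiest genes at 200 CPM or more were *Dcun1d1* (a neddylation factor), *Cfdp1* and *Pdzk1*. *Dcun1d1* had 185 to 338 CPM over cells, a CV of 0.13 of which counting gives 0.11, leaving 0.06. Others of the 15 steadiest were the mitochondrial protease *Parl* (595 to 1033 CPM), the respiratory subunits *Uqcrh* and *Ndufb5*, the sorting factor *Tsg101*, and the actin regulators *Cfl1* and *Actr3*. Among abundant oocyte genes, *Zp3* (0.12), *Zp1* (0.14), *Khdc3* (0.15) and *Gdf9* (0.17) were also steady, and so was the marker *Uhrf1* (0.16). Several lists of common cell function lay below the median of all genes, with a median of 0.17 for 34 proteasome subunits, 0.19 for 73 respiratory chain genes and 0.22 for 80 ribosomal proteins. The value also fell with level, from 0.28 for genes at 50 to 100 CPM to 0.20 for those at 500 to 1000 CPM, so that ribosomal proteins were not low for abundant genes. The 12 zona and secreted factors (0.37) and 19 maternal effect genes (0.35) were above the median of all genes.

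**Figure D4:**
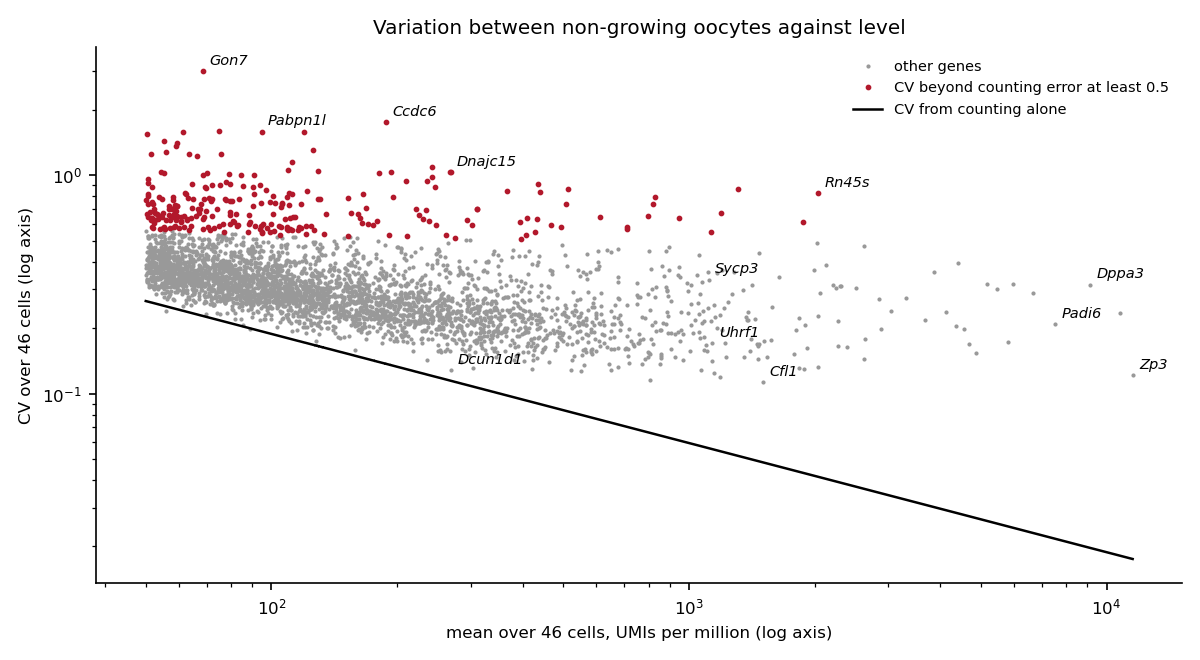
CV over 46 NGO cells against mean level for 3690 genes, both on log axes, with the CV from counting alone as a black line. Red points are the 255 genes whose CV beyond counting is 0.5 or more. *Gon7* lies highest and *Zp3*, the most abundant gene, lies near 0.12.

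The highest CV values rested in good part on shallow cells. *Gon7*, of a tRNA-modifying complex, had a CV beyond counting of 2.98, but 1 cell of 91679 UMIs had 1385 CPM while the next had 270 and the median was 18.7. *Ccdc6* (1.75) reached 2210 CPM in a cell of 66076 UMIs and fell to 0.38 without the 10 shallowest cells. Of the 255 variable genes, 50.6% had their highest value in 1 of the 4 cells under 100000 UMIs. Without the 10 shallowest cells, 58.8% of the 255 were still at 0.5 or more. The part of capture and amplification in the shallow cells was not tested.

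Other genes stayed above 1 in CV beyond counting without the shallow cells. *Cnot6l*, a deadenylase that acts on maternal mRNA, had 10.9 to 625 CPM over cells (median 40.9) and a CV beyond counting of 1.57, or 1.74 without the 10 shallowest. *Pabpn1l*, the embryonic nuclear poly(A)-binding protein, had 0 to 757 CPM (median 27.6), with UMIs in 42 of 46 cells, and its CV beyond counting went from 1.57 to 1.503. *Chrna1*, a muscle acetylcholine receptor subunit, had 0 to 971 CPM (median 42.04) and went from 1.56 to 1.44. The zinc finger gene *Zfp316* had 0 to 380 CPM and went from 1.56 to 1.45, and *Arid5b*, a chromatin-binding factor, had 0 to 226 CPM with UMIs in 36 of 46 cells and went from 1.25 to 1.38. *H1f0*, the replacement linker histone, had 10.3 to 761 CPM (1.04 and 1.07) and *Dnajc15*, a mitochondrial co-chaperone, 92.7 to 1598 CPM (1.03 and 1.09). The restricted genes varied too: among those at 50 CPM or more, *Pcsk1n* had a CV beyond counting of 0.73, *Krt79* 0.72 and *Marcksl1* 0.58, while *Sycp3* had 0.33.

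A principal component analysis of log2(CPM + 10) over the 3690 genes and 46 cells gave a first component with 14.2% of the variance. At one end lay *Gm1965*, *Fbxw28*, *Obox5*, *Fgf8*, *Aspm*, *Fbxw14*, *E330011O21Rik*, *Ppp2r2b*, *Oosp1* and *Serpinc1*, of which 8 were at least 2-fold higher in GO1 than in NGO. At the other end lay *H1f0*, *Dnajc15*, *Syce1*, *4930562C15Rik*, *Spg21*, *Pkib*, *Marcksl1*, *Ift27*, *Maged1* and *Gm11985*, of which 9 were at least 2-fold lower in GO1. Over all 3690 genes these shares were 9.38% and 26.2%. GO1 cells did not enter the component, but its sign was set so that genes higher in GO1 are positive. These are 20 genes of 3690, and the summed lists given below did not all run the same way.

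Between the cells at the ends of the component, its leading genes differed by the following amounts, which the choice of genes and cells on the same component fixes in direction. *Obox5* averaged 134.4 CPM in the 10 cells with the highest scores and 14.1 CPM in the 10 with the lowest, against 715 CPM in GO1. *Fbxw14*, an oocyte F-box gene, averaged 1216 and 327 CPM, and *Fgf8*, a growth factor that oocytes secrete, 95.9 and 17.6 CPM. In the opposite direction, *Maged1* averaged 331 CPM in the highest and 796 CPM in the lowest cells, and *Syce1* 45.2 and 131.3 CPM. The cells with the highest scores did not reach the GO1 level for *Obox5*, *Fbxw14* (4133 CPM) or *Fgf8* (241 CPM), but averaged slightly above it for *Ppp2r2b* (114.3 against 110.2 CPM) and *Serpinc1* (257 against 244 CPM).

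The first component ran with the summed level of whole lists, whose genes were partly among the 3690. Pearson's r over 46 cells, given as a description, was -0.86 with mitochondrial ribosomal proteins, -0.73 with the respiratory chain, -0.64 with proteasome subunits, -0.63 with pluripotency genes, -0.57 with meiotic genes, -0.55 with follicle dormancy and PI3K genes and 0.52 with DNA methylation genes. For 3 of these lists the sign is opposite to that of the end genes. Mitochondrial ribosomal proteins summed to 12650 CPM in GO1 and 10571 CPM in NGO, proteasome subunits to 10755 and 10361 CPM, and DNA methylation genes to 2889 CPM in GO1 and 4603 CPM in NGO. It was -0.21 with log10 of the UMIs of the cell, and the cells at its ends had 66076 UMIs (highest score) and 1071049 UMIs (lowest score). The 13 genes *Fbxw14* to *Fbxw29* in the table summed to 2753 to 13541 CPM over NGO cells (median 5759) against 20896 CPM in GO1. Among the 12 at 50 CPM or more, r between genes over cells had a median of 0.62 over 66 pairs (-0.01 to 0.93). These F-box genes are near-identical copies, and reads shared between them would raise such values.

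**Figure D5:**
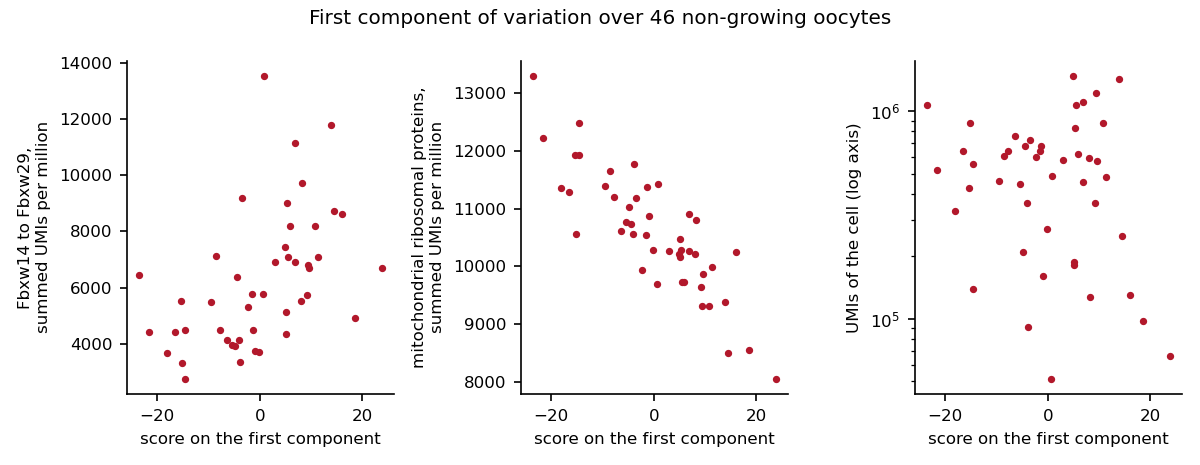
Score of each of 46 NGO cells on the first component against the summed CPM of *Fbxw14* to *Fbxw29* (left), of mitochondrial ribosomal proteins (middle) and against the UMIs of the cell on a log axis (right). Mitochondrial ribosomal proteins fall along the score (r -0.86) and depth has a weaker relation (r -0.21).

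The second component, with 9.84% of the variance, ran with depth. Its r with log10 of the UMIs was 0.70, and 0.67 with the number of detected genes. The positive end held *Map7d1*, *Endod1*, *Fbxw14*, *Tceal8*, *Fbxw28*, *Gm813*, *Nsun4*, *A730082K24Rik*, *Taf9b* and *Mrap*. Of these 10, 6 were at least 2-fold higher in GO1 than in NGO (9.38% of all 3690 genes). *Fbxw14* and *Fbxw28* lay at an end of the first component as well. Of the 10 at the negative end, 4 were at least 2-fold lower in GO1 (26.2% of all). The negative end held *Ado*, *Lama2*, *Ptp4a2*, *Gid8*, *Kctd3*, *Mn1*, *Rn45s*, *Rpl17*, *Ccdc6* and *Nufip2*, of which *Ccdc6* and *Mn1* fell under 0.5 in CV beyond counting without the 10 shallowest cells. *Rpl17* averaged 2160 CPM in the 10 cells with the lowest scores and 708 CPM in the 10 with the highest.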

How the data were processed

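Per the study's methods, the authors split reads by barcode, cut off low-quality ends, used Tophat for alignment to mm9 transcripts, collapsed duplicates by UMI and kept cells above 3000 genes with 20000 to 4000000 transcripts. They also removed cells with a high ratio of spike-ins, which left 223 of 296 cells. They deposited UMI counts per gene and cell (23201 genes, 223 cells), not normalized. All 46 NGO cells met the limits on genes and transcripts. The table held 0 mitochondrial-genome and 0 spike-in rows. Barcodes stood for 296 cells in 4 libraries. The iscCOOL-seq data were not analysed here.

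UMIs were summed per stage and scaled to CPM. Sums carry Poisson, shares Clopper-Pearson and ratios binomial intervals. No doublet caller was run on hand-picked cells. Scaling alternatives used DESeq2 1.42.0 and edgeR 4.0.16 (TMM), and other steps Python 3.11.15. A pseudocount of 0.1 CPM entered log2 ratios. Rules were tried on simulated cells whose differences lay well beyond the limits, with counting noise as the only other variation. This shows that the rules run as written and not how they do on real cells. Named genes are the 30 most abundant, 25 restricted by level and 10 by ratio, 15 depleted, 20 most and 15 least variable, 10 at each end of 2 components, the markers and list genes. Genes named after their values were seen, outside that rule, are *Cox4i1*, *Lamp1*, *Ctsd*, *Fam109a*, *2410003L11Rik* and *Rpl17*. Members and lists were chosen with earlier results of these data known. Positions follow GENCODE vM1 on NCBIM37.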

Additional observations from a re-analysis of the deposited data

How the results depend on the processing

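Counts of genes are also given as a percentage of the 23201 genes in the table. Restricted genes (0.142%) numbered 25 to 36 by the mean over cells, without the 10 deepest cells of each stage and under both other scalings, and 19 of the 33 held under all of these. Thinning to 20000 UMIs left 6 (0.0259%). *Crabp1* was among those lost, although 47.8% of thinned NGO cells and 0% of thinned cells of each other stage had a UMI. The rule takes a stage at 0 UMIs at 3 UMIs, which is a larger share of the smaller thinned sums. With 26 GO2 cells of 20000 UMIs each, 10 times that floor lies above the 41.6 CPM of *Crabp1* in NGO. The rule could therefore not keep *Crabp1*, nor genes at or below its level without UMIs in thinned GO2 cells. The part of this setting in the other losses was not tested. Without a CPM minimum 0.332% were restricted, 0.685% depleted, 10.2% higher and 7.62% lower, and with a minimum of 50 CPM 0.0302%, 0.0517%, 2.12% and 1.46%. A limit of 5-fold gave 0.53% restricted and 0.478% depleted, and 20-fold gave 0.0431% and 0.0388%. Detected genes per cell were 6824 at 50000 UMIs and 10302 unthinned. Variable genes, 6.91% of those at the minimum, came to 4.33% without the 10 shallowest cells, 4.25% with the highest cell of each gene left out, 4.17% at 200 CPM and 11.8% at 20 CPM. The median CV beyond counting was 0.214 with the highest cell of each gene left out, 0.206 at 200 CPM and 0.276 at 20 CPM. The first component held 7.17% of the variance when cells were thinned to 50000 UMIs, with r 0.99 to the scores without thinning. Of the 20 genes at its ends, 12 were kept with this thinning and 14 without the 10 shallowest cells. Chosen after the data were seen, leaving out the cell with stromal transcripts gave 33 restricted, 41 depleted and 252 variable genes, and leaving out the 4 cells under 100000 UMIs 171 variable genes. The share of the 100 most abundant genes could not be recomputed without mitochondrial-genome genes, since the table has none. No paired analysis was possible because the cells carry no library or replicate number. In a single cell thinned to 20000 UMIs, 1 UMI is worth 50 CPM, so genes under that level had UMIs in only part of the cells. This limit holds for single cells and not for the summed thinned cells of a stage. For those sums, the 3 UMIs taken for a stage at 0 set a limit of their own.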
